A study of Mus musculus with 180 samples.

Results

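TRIM28 was mapped by chromatin immunoprecipitation and sequencing (ChIP-seq) in undifferentiated mouse embryonic stem cells (ESCs), and 37885 of the 94211 TRIM28 regions overlapped no accessible region of ESCs or of the epiblast-like cells (EpiLCs) made from them. These regions were chosen by position alone: a member shared not 1 base with any of the 112226 ESC or 100415 EpiLC regions in which an assay of transposase-accessible chromatin (ATAC-seq) had been counted. The remaining 56326 TRIM28 regions lay inside accessible chromatin by the same rule. TRIM28 was measured in 3 D2 ESC lines, D29, DAC203 and D55, derived from the inbred strain DBA/2J, and in 3 B6 lines, B41, B44 and B51, derived from the inbred strain C57BL/6J. All 6 were kept in naive culture conditions, carried no named transgene or mutation, and gave 1 TRIM28 library each. RNA of the same 6 ESC lines was sequenced, and P300 and POU5F1 ChIP-seq covered 2 lines of each strain, D29 and D55 against B41 and B51. The accessible regions came from ESCs and EpiLCs of D2, B6 and BXD lines, which are recombinant inbred lines between the other strains. Each line is a separate ESC derivation, so the p-values measure the spread between lines of a strain.

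TRIM28, also called KAP1, is a co-repressor that does not itself bind DNA in a sequence-specific way. It is brought to chromatin by zinc finger proteins that carry a KRAB domain, and it recruits the histone methyltransferase SETDB1, which lays down H3K9me3, together with HP1 proteins. In mouse ESCs this system is known for silencing endogenous retroviruses and other mobile elements, and for keeping the DNA methylation of imprinted control regions through the KRAB zinc finger protein ZFP57, whose recognition hexamer is TGCCGC with a methylated CpG.

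Central windows of 300 bases are printed for 9 members with large strain differences, because the motifs they hold recur in the comparison between strains. They are read from the plus strand of GRCm38 (mm10), 5′ to 3′, as RefSeq gives it. The first 5 hold the ZFP57 hexamer at least 2 times, and the capitals mark TGCCGC or its reverse complement GCGGCA. All 5 had lower TRIM28 signal in D2 lines. The pair on chromosomes 7 and 14 had the largest falls among such ranked windows and was wholly repeat-masked in the assembly, whereas the windows on chromosomes 2, X and 9 had no masked base. The window on chromosome 9 lies in an intron of Stt3b, a catalytic subunit of oligosaccharyltransferase, and repeats 1 short unit with 4 hexamers.
chr7:42888226-42888525: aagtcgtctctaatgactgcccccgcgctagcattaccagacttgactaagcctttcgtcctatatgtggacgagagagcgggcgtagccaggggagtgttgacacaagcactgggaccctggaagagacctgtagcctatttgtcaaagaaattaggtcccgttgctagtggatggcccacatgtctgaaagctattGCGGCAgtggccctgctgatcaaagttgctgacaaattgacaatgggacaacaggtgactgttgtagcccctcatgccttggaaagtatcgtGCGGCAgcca
chr14:111375533-111375832: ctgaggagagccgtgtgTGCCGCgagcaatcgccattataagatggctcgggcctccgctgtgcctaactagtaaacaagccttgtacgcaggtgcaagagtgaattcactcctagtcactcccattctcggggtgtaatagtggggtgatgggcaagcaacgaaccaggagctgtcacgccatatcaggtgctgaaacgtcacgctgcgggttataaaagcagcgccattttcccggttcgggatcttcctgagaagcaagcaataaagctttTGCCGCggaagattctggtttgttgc
chr2:28394145-28394444: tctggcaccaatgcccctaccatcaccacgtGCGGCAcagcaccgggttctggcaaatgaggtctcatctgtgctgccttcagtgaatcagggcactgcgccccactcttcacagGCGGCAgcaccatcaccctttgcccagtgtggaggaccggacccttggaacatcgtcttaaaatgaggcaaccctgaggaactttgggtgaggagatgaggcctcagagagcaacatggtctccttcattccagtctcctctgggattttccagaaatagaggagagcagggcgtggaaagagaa
chrX:140797253-140797552: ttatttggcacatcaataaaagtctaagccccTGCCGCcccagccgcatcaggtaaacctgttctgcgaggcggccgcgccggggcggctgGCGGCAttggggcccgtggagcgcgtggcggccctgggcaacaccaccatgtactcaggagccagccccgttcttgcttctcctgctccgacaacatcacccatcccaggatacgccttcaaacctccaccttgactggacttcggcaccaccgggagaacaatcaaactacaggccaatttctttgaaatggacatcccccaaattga
chr9:115283157-115283456: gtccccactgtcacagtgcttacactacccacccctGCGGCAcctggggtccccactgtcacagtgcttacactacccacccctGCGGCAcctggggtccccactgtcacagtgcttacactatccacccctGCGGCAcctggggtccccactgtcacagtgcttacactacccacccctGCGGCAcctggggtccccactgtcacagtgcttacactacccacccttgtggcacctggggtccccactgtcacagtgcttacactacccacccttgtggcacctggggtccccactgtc

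The next 2 windows hold tracts of at least 4 CTG units, marked by capitals, and had the largest rises in D2 lines among ranked windows with such a tract. The longest uninterrupted tract had 11 units in the window on chromosome 17 and 6 units on chromosome 11.
chr17:13999031-13999330: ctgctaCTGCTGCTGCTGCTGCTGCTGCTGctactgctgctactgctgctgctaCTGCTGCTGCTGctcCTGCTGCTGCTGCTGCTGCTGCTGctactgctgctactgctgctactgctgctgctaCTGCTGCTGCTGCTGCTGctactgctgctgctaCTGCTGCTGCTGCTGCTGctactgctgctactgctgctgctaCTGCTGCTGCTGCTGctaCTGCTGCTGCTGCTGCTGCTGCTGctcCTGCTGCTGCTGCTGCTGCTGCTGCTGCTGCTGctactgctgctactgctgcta
chr11:63675760-63676059: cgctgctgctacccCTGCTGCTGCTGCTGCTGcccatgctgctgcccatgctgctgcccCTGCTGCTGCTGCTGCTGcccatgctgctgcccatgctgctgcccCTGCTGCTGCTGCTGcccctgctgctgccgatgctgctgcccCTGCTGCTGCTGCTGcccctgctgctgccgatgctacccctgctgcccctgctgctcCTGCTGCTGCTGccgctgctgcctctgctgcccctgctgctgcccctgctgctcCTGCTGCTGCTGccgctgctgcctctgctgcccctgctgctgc

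The last 2 windows had no soft-masked base and the largest fall and the largest rise in D2 lines among such ranked windows. Capitals mark CpG dinucleotides, of which the intergenic window on chromosome 12 holds 9 and the window in a Pkd2 intron on chromosome 5 holds 6.
chr12:88095645-88095944: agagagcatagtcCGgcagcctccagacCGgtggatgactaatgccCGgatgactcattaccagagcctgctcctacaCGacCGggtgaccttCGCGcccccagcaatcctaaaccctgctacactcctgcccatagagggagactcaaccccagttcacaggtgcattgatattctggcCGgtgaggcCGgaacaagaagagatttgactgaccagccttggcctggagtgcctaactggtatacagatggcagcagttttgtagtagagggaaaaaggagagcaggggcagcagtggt
chr5:104495713-104496012: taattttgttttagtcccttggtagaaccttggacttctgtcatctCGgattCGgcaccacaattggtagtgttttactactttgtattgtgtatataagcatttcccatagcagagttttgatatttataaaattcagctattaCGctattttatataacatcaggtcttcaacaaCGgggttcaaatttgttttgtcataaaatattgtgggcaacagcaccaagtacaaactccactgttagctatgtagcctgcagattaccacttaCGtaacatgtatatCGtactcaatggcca

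Depth differed between the libraries. Reads in TRIM28 regions numbered 6870762, 6872995 and 17092029 in the D2 lines D29, DAC203 and D55, against 5944103, 6536728 and 5634327 in the B6 lines B41, B44 and B51. Over all TRIM28 regions the median region held 44 reads in D29, 46 in DAC203 and the most in D55, against 39, 43 and 38 reads in the B6 lines. RNA of the lines carried the pluripotency genes, all 8 listed markers being measured. Of these Nanog was higher in D2 lines, and Dppa5a, Klf4 and Tfcp2l1 were lower by limma, 50% of the list against 37.6% of all genes tested. The summed RNA of 7 fibroblast markers, which feeder cells would carry, ranged from 938 to 1291 in D2 lines and from 832 to 1110 in B6 lines, and none of them passed the test. Only 2 of 5 primitive endoderm markers reached the level needed for testing, and neither passed.

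TRIM28 regions outside accessible chromatin were narrower than those inside it. Their width ran from 251 to 27815 bases with a median of 1477 bases (lower quartile 1181, upper quartile 2029), against a median of 1932 bases inside (1437 to 2812). Regions wider than 5 kb numbered 881 outside (2.33%) and 3864 inside (6.86%). Above 10 kb there were 82 outside (0.216%) and 566 inside (1.00%). In all, the members covered 68.6 Mb, against 139.6 Mb inside. Each region has 1 width shared by all lines, so no test of width was made.

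They also lay farther from genes. An intergenic midpoint was found for 67.7% of the members, against 43.5% inside. Introns held 29.5% of the midpoints outside and 39.4% inside, and exons held 2.83% outside and 17.1% inside. Only 300 members (0.792%) lay within 1 kb of the transcription start of a protein-coding gene, against 22.3% of the regions inside. The median distance to such a start was 66987 bases outside and 17596 bases inside. GC content had a median of 45.0% outside and 48.6% inside, and CpG dinucleotides had a median of 1.24 and 1.61 per 100 bases in the same order. Soft-masked sequence, the lower-case letters that mark repeats in the assembly, made up a median of 50.8% of each member, against 20.5% of the regions inside and 36.4% of the assembled chromosomes. More than 90% of the bases were masked in 4799 members (12.7%), against 658 regions inside (1.17%). By chromosome, 67.3% of the TRIM28 regions of the X (1401 of 2082) and 82.9% of those of the Y (131 of 158) were outside, against 40.2% of all. The autosomes ran from 27.5% on chromosome 11 to 45.7% on chromosome 3.

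Distance from accessibility varied among the members. The nearest accessible region was a median of 8219 bases away. It was within 1 kb for 11.9% of the members, farther than 10 kb for 45.3% and farther than 100 kb for 3.38%. The rule turns on single bases, and values at its edge were close: 374 members within 100 bases of an accessible region had a median width of 1540 bases and a median signal of 4.07, and the 222 regions inside that overlapped one by 100 bases or fewer had 1446 bases and 3.83. A second ATAC table of the series, which also holds lines of F1 crosses and lists 241241 regions, did overlap 9876 members (26.1%), against 98.2% of the TRIM28 regions inside. In it, accessibility at these members had a median of 0.22 log2 in D2 lines and 0.06 log2 in B6 lines, against 0.97 log2 over all its regions. The label of lying outside accessible chromatin thus holds for the pair of tables named in the rule, while 26.1% of the members had a listed, weakly accessible region in the other one.

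**Figure D1:**
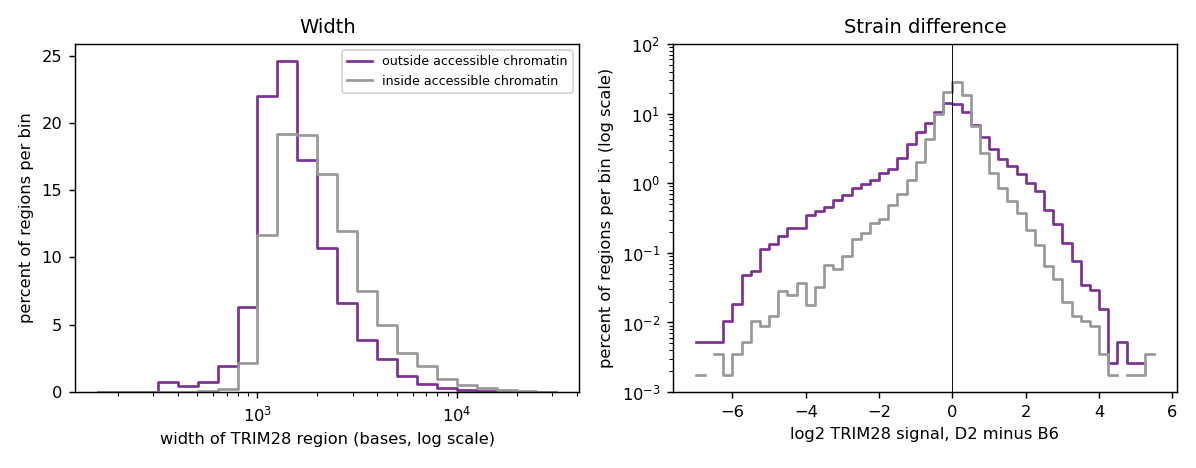
Histograms of region width in bases (left, log scale) and of the log2 TRIM28 signal difference, D2 minus B6 (right, vertical log scale), each in percent of regions per bin, for TRIM28 regions outside and inside accessible chromatin. The members peak at smaller widths (median 1477 against 1932 bases) and spread farther to both sides of 0.

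Signal per member was lower than inside accessible chromatin, but signal per length was not. The signal is the deposited normalized read count of a region. Its median over the members was 4.88 in D29, 4.611 in DAC203 and 4.56 in D55, against 5.001 in B41, 4.87 in B44 and 4.71 in B51. The D2 lines averaged 4.68 ± 0.169 and the B6 lines 4.86 ± 0.146 (SD, n = 3 each), with overlapping groups and an exact permutation p of 0.3, two-sided. Set against the median inside, the members' median per region was 0.776, 0.75 and 0.735 times as high in the D2 lines and 0.857, 0.809 and 0.786 times as high in the B6 lines. The ratio was below 1 in 6 of 6 lines, with a geometric mean of 0.784 and an exact sign-flip permutation p of 0.03125, the smallest that 6 lines allow. Per kilobase, the ratio was 1.04, 0.988 and 0.985 in the D2 lines and 1.16, 1.09 and 1.07 in the B6 lines. Its geometric mean was 1.05, above 1 in 4 of 6 lines, with an exact permutation p of 0.125.

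The B6 lines placed more of their TRIM28 signal in these regions. The share of all TRIM28 reads in regions that fell outside accessible chromatin was 34.3%, 33.3% and 32.999% in D29, DAC203 and D55, against 37.5%, 36.5% and 35.3% in B41, B44 and B51. No D2 line reached the lowest B6 line. The means were 33.5% ± 0.68 in D2 lines and 36.4% ± 1.08 in B6 lines (SD, n = 3 each), a difference of −2.89 percentage points with an exact permutation p of 0.1, the smallest that 3 against 3 lines allow.

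**Figure D2:**
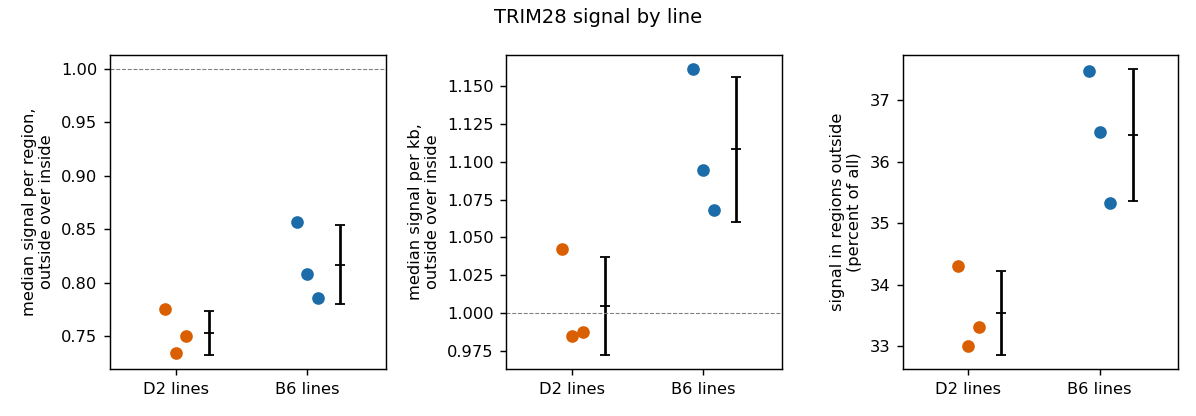
One point per ESC line for the ratio of the median TRIM28 signal outside to that inside accessible chromatin, per region (left) and per kb (centre), and for the share of signal in regions outside (right, percent). Bars are the mean and SD of 3 lines; the D2 lines sit below the B6 lines in all 3 panels.

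Between strains, TRIM28 signal differed at 44.1% to 54.99% of these regions, depending on the test and on the lines used. With limma on log2(signal + 0.1), fitted over all 94211 regions with Benjamini-Hochberg adjustment, 20148 members (53.2%) passed an adjusted p of 0.05, of which 9012 were higher and 11136 lower in D2 lines. Over all TRIM28 regions 38.1% passed, 19.7% being higher and 18.4% lower, and inside accessible chromatin 15760 (27.98%) passed. Of the members, 44.1% passed with DESeq2 and 54.99% with edgeR on recovered reads. The median log2 difference, D2 minus B6, was −0.05 over the members, 0.09 inside and 0.05 over all regions. Quartiles of the members' differences were −0.60 and 0.43. A passing difference of over 2-fold was found at 10058 members, of which 4248 (11.2%) were higher and 5810 (15.3%) lower in D2 lines. The shares over all regions were 6.70% higher and 8.35% lower, and those inside were 3.67% and 3.64% in the same order. Regions are not replicates, so these shares are set side by side without a test.

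Large differences were more often falls. Over 4-fold, 1051 members were higher and 2418 lower in D2 lines. Over 16-fold, 11 were higher and 388 lower. The 3 lines of one strain did not overlap the 3 of the other at 59.3% of the members, against 47.4% of all TRIM28 regions. Across the members, log2 signal of 2 lines of 1 strain had a Pearson r of 0.938 to 0.962 (6 pairs), and that of a D2 and a B6 line had an r of 0.482 to 0.517 (9 pairs). Inside accessible chromatin the same ranges were 0.939 to 0.967 and 0.798 to 0.828. The pairs share the region set and the widths, and the values are a description.

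A minority of the members that were lower in D2 lines had almost no signal there. Those over 2-fold lower had a median signal of 1.77 in D2 lines and 6.41 in B6 lines, and those over 2-fold higher had 6.60 in D2 lines and 2.16 in B6 lines. The D2 mean was under 1 at 1380 (23.8%) of the lower members, and the B6 mean was under 1 at 355 (8.36%) of the higher members. At 8 lower members all 3 D2 lines had no read, and at no higher member did all 3 B6 lines lack reads. The read positions are given on GRCm38, which is the C57BL/6J genome. For D2 lines, weaker binding, a sequence missing from DBA/2J and reads that failed to align to the C57BL/6J sequence cannot be told apart here, and the input libraries were not analysed here.

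Of the 9 largest rises among members with a mean signal at or above the median of all regions (5.48), 6 lay in introns and 3 in intergenic sequence. Members with weaker signal were not ranked. At chr17:13998498-13999862, which holds the CTG window printed first, signal was 25.3, 17.97 and 18.7 in D29, DAC203 and D55, against 1.11, 0.640 and 0.285 in B41, B44 and B51. All D2 lines were far above all B6 lines, with a log2 difference of 4.87 ± 0.29 (SE) and a limma adjusted p of 2.1e-13. In an intron of Exoc4, a subunit of the exocyst that tethers secretory vesicles, chr6:33498855-33501511 had 50.6, 40.1 and 36.3 in the D2 lines, against 1.53, 1.92 and 1.71 in the B6 lines, a log2 difference of 4.53 ± 0.16 (limma adjusted p = 4.0e-25). The widest and strongest of the 9 was chr5:104491128-104500596 in Pkd2, the gene of the polycystin-2 cation channel. It had 148.9, 122 and 116.4 in the D2 lines, against 10.3, 12.2 and 10.1 in the B6 lines, a log2 difference of 3.56 ± 0.12 (limma adjusted p = 1.2e-25). Its central bases are the last window printed.

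The other 6 rises had log2 differences between 3.53 and 4.02. They lay in introns of Sntg1, a syntrophin, of Gm13212, of Tbl1x, a subunit of the NCoR co-repressor complex, and of Cfap43, a protein of the sperm flagellum. The others were intergenic, and their nearest protein-coding starts were distant, Hs3st3b1 at 244920 bases and Egf at 86835 bases. The region near Hs3st3b1, chr11:63674448-63677370, holds the other CTG window printed. Signal was 71.0, 46.7 and 49.6 in the D2 lines against 3.61, 4.23 and 2.997 in the B6 lines at the region near Hs3st3b1. Lines of the strains that do not overlap were a condition for naming these regions and the falls. RNA of genes at or nearest the rises went both ways. The distant Hs3st3b1 was higher in D2 lines (1.22, limma adjusted p = 0.0011). Cfap43 was lower (−0.68, limma adjusted p = 0.010), as was Gsto1 nearest the same region (−2.13, limma adjusted p = 3.8e-06). Exoc4 (0.10), Tbl1x (−0.15), Pkd2 (0.35) and Gm13212 (−0.37) did not pass.

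Above the same signal floor, the 10 largest falls reached further from 0, with log2 differences from −6.89 to −5.81. At chr4:60265226-60268148, among the major urinary protein genes with Mup8 nearest, signal was 0, 0 and 0.376 in D29, DAC203 and D55, against 18.6, 22.8 and 18.3 in B41, B44 and B51. These are 0, 0 and 8 reads in the D2 lines against 134, 178 and 128 reads in the B6 lines. The fitted log2 difference was −6.89 ± 0.43 (limma adjusted p = 1.6e-13), and with so few D2 reads its size depends on the constant of 0.1 added before the log. The strongest B6 signal of the 10 was at chr12:88091782-88099807, an intergenic region 8025 bases wide. It had 1.41, 1.30 and 1.83 in the D2 lines, against 137, 136 and 104 in the B6 lines, a log2 difference of −6.28 ± 0.14 (limma adjusted p = 3.1e-31). Only 16.3% of its bases were soft-masked.

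Other falls of this size lay near Asap2, an Arf GTPase-activating protein (−6.79), in Gm32772 near the pregnancy-specific glycoprotein gene Psg29 (−6.56), and near Gm14403 (−6.19), Gal3st2c (−6.08), Slitrk6 (−6.04), Skint6 (−5.91), Akap1 (−5.86) and B3gnt7 (−5.81). These genes have the nearest protein-coding starts, from 17084 bases away (B3gnt7) to 92152 (Skint6), 131053 (Slitrk6) and 148142 bases (Psg29). Near Gm14403, chr2:177516646-177520793 had 0.385, 0.236 and 0.376 in the D2 lines against 32.5, 29.2 and 31.4 in the B6 lines. RNA of Gm14403 was 1.99, 1.07 and 1.24 in D29, DAC203 and D55, against 7.36, 11.3 and 9.21 in B41, B44 and B51, a log2 difference of −2.08 ± 0.20 (limma adjusted p = 6.9e-05). It was lower together with the TRIM28 region, whose nearest edge was 18432 bases from the start of the gene. RNA of Asap2 was higher in D2 lines (0.44, limma adjusted p = 0.018), opposite to its region, and that of Akap1 (−0.07) and B3gnt7 (−0.17) did not pass. The soft-masked share of the 10 regions ran from 16.3% at the region on chromosome 12 to 100% near B3gnt7.

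**Figure D3:**
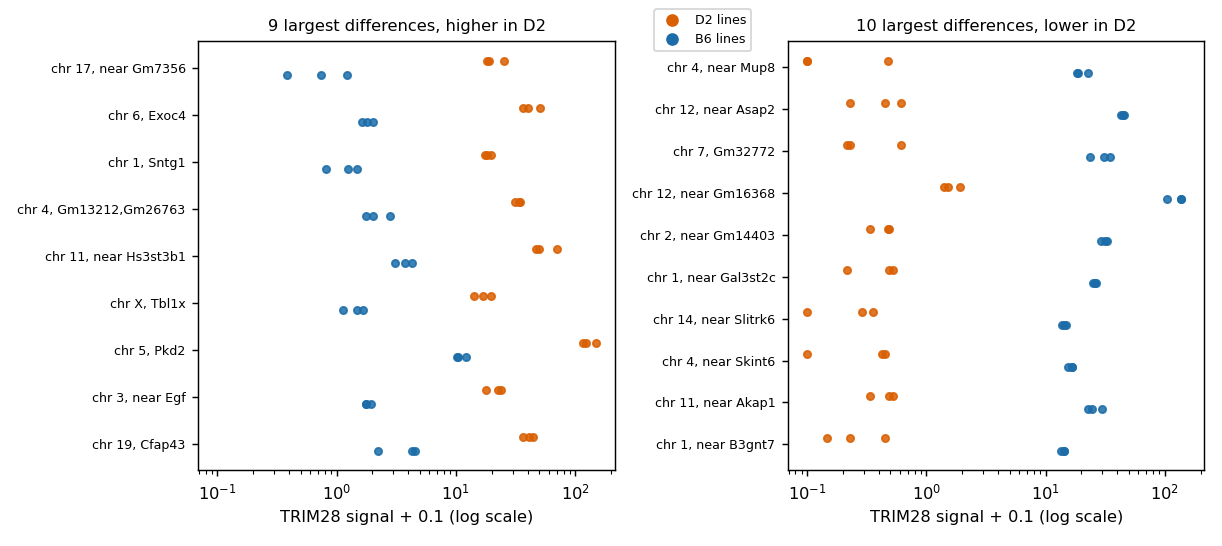
TRIM28 signal plus 0.1 (log scale) in each D2 and B6 line at the 9 members with the largest rises (left) and the 10 with the largest falls in D2 lines (right), labelled by chromosome and gene. Separate strains and a mean signal at or above the median of all regions (5.48) were conditions of the choice. At 9 of the 10 falls every D2 line lies below 1.

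The 5 strongest members differed little between strains. The highest signal and the greatest width belonged to chr10:83423874-83451689 in D10Wsu102e, with 303, 277 and 263 in the D2 lines, against 412, 373 and 326 in the B6 lines. The lines did not overlap, and the log2 difference was −0.39 ± 0.10 (limma adjusted p = 0.0019). Leaving out the B6 line B41 ended this call, at an adjusted p of 0.078. The next 4 by signal did not pass: chr16:22271263-22284845 (0.07), chr16:10179541-10191233 (−0.19), chr7:6604926-6626095 (−0.09) and chr10:20007464-20019730 in an intron of Map3k5, the stress kinase ASK1 (0.13). Signal at this last region was 206, 163 and 142 in the D2 lines and 171, 163 and 132 in the B6 lines, with overlapping groups. RNA of Map3k5 did differ, at 26.4, 22.3 and 29.99 in D29, DAC203 and D55, against 6.92, 6.85 and 7.52 in B41, B44 and B51, a log2 difference of 1.74 (limma adjusted p = 1.2e-05). RNA of D10Wsu102e (0.23), Tra2b (−0.27) and Atf7ip2 (−0.06), at or nearest the others, did not pass. Among the widest were also chr3:3009108-3033828 (0.37, adjusted p = 0.00385, and 0.078 without limma's trend and robust options), chr17:66164982-66183785 (0.66, adjusted p = 2.2e-06) and chr10:83368563-83386181 (−0.72, adjusted p = 6.5e-07).

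Per kilobase, the highest values stood on the Y chromosome beside Gm21860. The region chrY:90746930-90747222 had 69.2, 50.96 and 39.8 in the D2 lines, against 6.25, 4.87 and 9.28 in the B6 lines, a log2 difference of 2.97 (limma adjusted p = 1.7e-05), and its neighbour chrY:90746261-90746683 had a difference of 2.87 (adjusted p = 0.0020). Their read counts were nearly equal, 539, 431 and 846 against 539, 430 and 847 in D29, DAC203 and D55. In B41, B44 and B51 they were 45, 38 and 65 against 50, 37 and 74. Whether both regions hold the same reads was not tested. The next was chr7:40131597-40132289, a wholly masked region with a difference of 1.09 (adjusted p = 7.2e-08). The other two, on chromosomes 12 and 13, did not pass. These 5 regions are between 292 and 692 bases wide.

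Members with the ZFP57 hexamer were more often lower in D2 lines than members without it. TGCCGC, searched on both strands of the central 300 bases, was in 2847 members (7.51%), in 9.71% of the regions inside and in 8.83% of all regions. Of the members with it, 717 (25.2%) were over 2-fold lower and 157 (5.51%) over 2-fold higher in D2 lines, with a median log2 difference of −0.26. Of the 35038 members without it, 14.5% were over 2-fold lower and 11.7% higher. The excess of falls was not particular to TGCCGC. With AGCCGC, which differs in the first letter and was searched after these values were seen, 20.9% of 2238 members were over 2-fold lower and 6.03% higher. More hexamers went with more falls. With 1 hexamer 22.7% of 2644 members were over 2-fold lower, with 2 it was 56.4% of 179, and with 3 or more 62.5% of 24. The 203 members with at least 2 hexamers had a median log2 difference of −1.14, 57.1% being over 2-fold lower and 10 members (4.93%) over 2-fold higher. Inside accessible chromatin, 5.11% of the 744 regions with at least 2 were over 2-fold lower. A match of letters is a description of the window and not a measured ZFP57 site, and motif and outcome were set side by side without a test.

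The same order held in each bin of the soft-masked share of the window. Masking does not catch every repeat: the printed window on chromosome 9 had no masked base but repeats 1 short unit. Where 0 to 25% of the window was masked, 31.8% of members with the hexamer were over 2-fold lower in D2 lines, against 13.5% of those without. The pairs were 21.7% and 12.1% at 25 to 50% masked, 22.1% and 11.2% at 50 to 75%, and 24.1% and 17.7% at 75 to 100%. At the 3 windows printed with no masked base, signal was 5.13, 4.73 and 5.13 in D29, DAC203 and D55 at the chromosome 2 region, against 50.98, 49.9 and 41.2 in B41, B44 and B51. The log2 differences at the 3 were −3.21 ± 0.13 on chromosome 2, −2.88 ± 0.25 on the X and −2.78 ± 0.16 on chromosome 9. At the masked pair they were −4.86 ± 0.22 on chromosome 7 and −4.60 ± 0.28 on chromosome 14. All 5 passed limma's adjusted threshold, as the choice of the windows required.

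CTG tracts went the other way. At least 4 CTG units in a row, CTGCTGCTGCTG on either strand, were in the central window of 149 members (0.393%). This motif was chosen after the values were seen. Of those members 98 (65.8%) were over 2-fold higher and 4 (2.68%) over 2-fold lower in D2 lines, and the median log2 difference was 1.39. Their median signal was 5.01 in D2 lines and 2.05 in B6 lines. Inside accessible chromatin 40 of 268 regions with the tract (14.9%) were over 2-fold higher and 10 (3.73%) lower. A hexamer can share letters with the end of a tract, and 20 members held both motifs. The POU5F1 octamer ATGCAAAT, searched on both strands, was in 798 members (2.11%) and in 2.29% of the regions inside. Of those members, 9.90% were over 2-fold higher and 11.5% lower, against 11.2% and 15.3% of all members. At any size 222 (27.8%) passed as higher and 167 (20.9%) as lower, with a median log2 difference of 0.09. The shares were 23.8% and 29.4% of all members, and 19.7% and 18.4% of all TRIM28 regions.

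**Figure D4:**
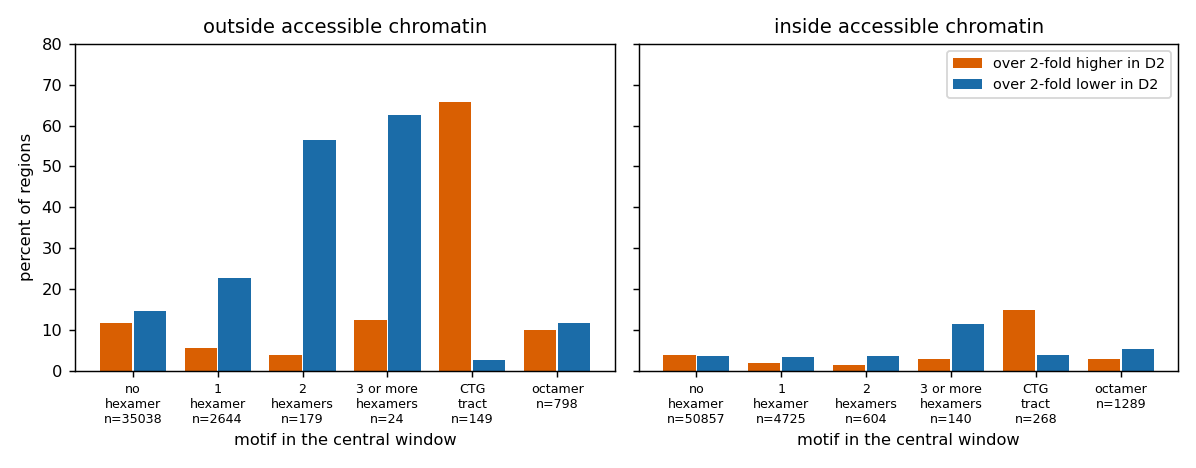
Percent of TRIM28 regions over 2-fold higher or lower in D2 lines by the motif in the central 300 bases, outside (left) and inside (right) accessible chromatin, with the number of regions under each pair of bars. Falls reach 62.5% with 3 or more hexamers and rises 65.8% with a CTG tract outside; inside, the tract reaches 14.9%.

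Members with more than 75% soft-masked bases fell more often. Over 2-fold lower signal in D2 lines was found at 12.7% of members with under 10% masked bases, 12.8% at 10 to 25%, 12.5% at 25 to 50%, 14.8% at 50 to 75%, 19.4% at 75 to 90% and 22.9% above 90%. Higher signal did not follow, with 12.9%, 13.3%, 9.66%, 12.9%, 9.77% and 9.77% over the same bins. Inside accessible chromatin both directions climbed with masking, with 1.48% lower and 1.27% higher in the lowest bin and 16.7% lower and 16.6% higher in the top one. Members also differed more at every level of signal. In the lowest 20% of all TRIM28 regions by mean signal 13.5% of the members were over 2-fold higher and 22.4% lower, and in the highest 20% 8.27% and 11.7%. The same signal bins inside had 3.23% higher and 6.82% lower, and 5.83% and 4.54%. Falls became more frequent with distance from accessibility. Within 1 kb 9.32% of 4516 members were over 2-fold lower, and at 1 to 10 kb 13.5% of 16204. At 10 to 100 kb it was 18.5% of 15884 and beyond 100 kb 19.8% of 1281. Shares over 2-fold higher were 8.53%, 10.8%, 12.3% and 11.9% over the same bins. The median soft-masked share of the members rose as well, from 32.7% within 1 kb to 76.7% beyond 100 kb.

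**Figure D5:**
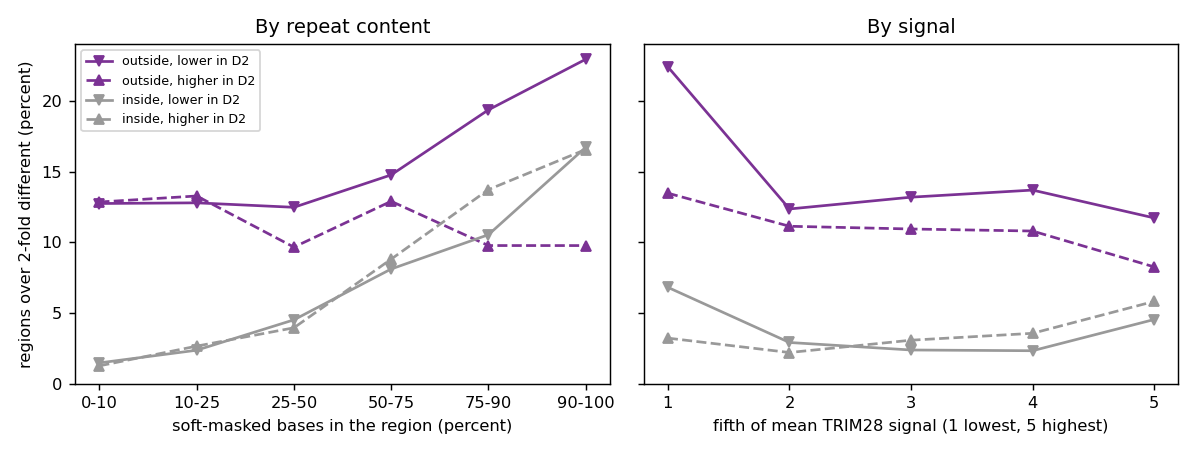
Percent of TRIM28 regions over 2-fold higher or lower in D2 lines, by soft-masked percent of the region (left) and by mean TRIM28 signal in 5 equal bins (right), outside and inside accessible chromatin. Falls outside reach 22.9% above 90% masked, and the outside lines stay above the inside lines in all 5 bins.

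Zinc finger genes, the source of the KRAB proteins that bring TRIM28 to DNA, themselves held 225 members, of which 22 (9.78%) were over 2-fold higher and 43 (19.1%) lower in D2 lines, against 11.2% and 15.3% of all members. The strongest was chr9:122854308-122862959 in an intron of Zfp445, a KRAB protein that acts at imprinted loci beside ZFP57, with 115, 105 and 95.8 in the D2 lines and 119, 118 and 112 in the B6 lines, which did not differ past the threshold (−0.15, limma adjusted p = 0.28), although RNA of Zfp445 was lower in D2 lines (−0.34, limma adjusted p = 0.021). In an intron of Zfp11, chr5:129655200-129662265 had 45.8, 44.1 and 36.6 in the D2 lines, against 166, 170 and 147 in the B6 lines (−1.93 ± 0.11, limma adjusted p = 3.1e-18). RNA of Zfp11 was also lower in D2 lines, at 2.91 ± 0.260 against 4.58 ± 0.365 in B6 lines (SD, n = 3 each; −0.51, limma adjusted p = 0.017). In an intron of Zfp933, chr4:147838956-147844347 had 11.8, 9.81 and 9.08 in the D2 lines, against 80.4, 79.4 and 69.2 in the B6 lines (−2.89), while RNA of Zfp933 did not pass (−0.49, limma adjusted p = 0.15). At Zfp951, chr5:104809915-104815750 had a difference of −1.51, and the gene's RNA one of −1.08 (limma adjusted p = 0.0020). At Zfp934 and Zfp935, chr13:62479975-62483105 did not pass (0.11), nor did the RNA of either gene.

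Other families were smaller, and their shares are to be read against the same 11.2% and 15.3%. Olfactory receptor genes (Olfr) held 59 members, 5 of them (8.47%) over 2-fold higher and 13 (22.03%) lower. Vomeronasal receptor genes (Vmn) held 84, with 8 (9.52%) higher and 13 (15.5%) lower. Protocadherin genes (Pcdh) held 25, with 3 (12%) higher and 1 (4%) lower. Of 45 listed imprinted genes, 24 had a member in them or within 10 kb, 49 members in all, of which 4 (8.16%) were over 2-fold higher and 11 (22.4%) lower in D2 lines. The same genes had 123 regions inside, 1 of them (0.813%) higher and 21 (17.1%) lower, against 3.67% and 3.64% of all regions inside. At Zim1, a zinc finger gene of the Peg3 cluster, chr7:6676787-6679121 had 5.26, 4.85 and 5.36 in the D2 lines, against 16.8, 16.1 and 13.3 in the B6 lines (−1.55 ± 0.15, limma adjusted p = 1.4e-11). At Gnas, the gene of the stimulatory G protein alpha subunit, chr2:174345124-174347634 had a difference of −1.13 (adjusted p = 5.2e-08), while Gnas RNA was higher in D2 lines (0.32, limma adjusted p = 0.015). The region near Slc38a4, an amino acid transporter gene, did not pass (−0.03). Those near Inpp5f (0.30, adjusted p = 0.044) and Blcap (0.34, adjusted p = 0.024) passed narrowly. The call near Inpp5f was lost without D29 (0.19), D55 (0.32), B41 (0.30) or B44 (0.26), and the call near Blcap without D29 (0.23), B44 (0.35) or B51 (0.27). Inpp5f RNA was lower in D2 lines (−0.61, limma adjusted p = 0.021), and Blcap RNA did not pass (0.17).

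Strain differences of neighbouring members ran together. Of 11490 neighbour pairs at most 10 kb apart, 1702 had both members over 2-fold different, and in 1577 of these (92.7%) the direction was shared, 262 being higher and 1315 lower in D2 lines. At up to 50 kb the direction was shared in 2236 of 2746 pairs (81.4%). Pairs were counted among members only, so no share inside accessible chromatin or over all TRIM28 regions stands beside these values. Over 2596 windows of 1 Mb, the median window held 13 members and 3 over 2-fold different, and 229 held none that differed. The most crowded falls were on proximal chromosome 12: 39 of 55 members between 20 and 21 Mb were over 2-fold lower in D2 lines, and 33 of 54 between 19 and 20 Mb. At the Skint cluster on chromosome 4, a family expressed in skin and thymus, 25 of 28 members between 112 and 113 Mb were lower and 0 higher, with a median log2 difference of −3.85. A window of 9 Zfp genes on chromosome 4, between 147 and 148 Mb, had 21 of 40 lower and 2 higher. The most crowded rises were 14 of 45 members at the Cyp2c genes on chromosome 19, which encode cytochrome P450 enzymes, and 13 of 26 between 80 and 81 Mb of the X. Chromosome 12 between 23 and 24 Mb, beside the crowded falls, had 13 of 40 higher and 12 lower.

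Few members met the other bound factors. The co-activator acetyltransferase P300 had a region at 736 members (1.94%), against 53.7% of the regions inside. The pluripotency factor POU5F1 had one at 747 (1.97%), against 48.8% inside. At 729 such P300 regions, 37 passed as higher and 50 as lower in D2 lines by limma, 11.9% against 11.3% of all P300 regions. At 742 such POU5F1 regions, 45 were higher and 21 lower, 8.89% against 10.8% of all. These rest on 2 lines per strain, and a fit without a line leaves 1 library in its strain, which is assumed to vary like the 2 lines of the other: without D55 the P300 count was 220, without B41 it was 26, without B51 it was 23 and without D29 it was 55, and the POU5F1 count was 36 without D29 and 23 without D55. In the ATAC table with F1 lines, 2340 of the 9876 members found there had higher and 1433 lower accessibility in D2 lines by limma (23.7% and 14.5%), where 36.0% of all its regions passed in either direction. Where TRIM28 was over 2-fold lower in D2 lines, accessibility was higher at 252 and lower at 352 of 976 members. Where TRIM28 was over 2-fold higher, it was higher at 333 and lower at 340 of 1267.

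RNA of genes near any member differed about as often as RNA in general, and more often near members over 2-fold different, which was not tested. A member lay within 10 kb of the start of 2528 tested genes. Of these 460 were higher and 546 lower in D2 lines by limma (39.8%), against 37.6% of all 12694 genes, 17.3% higher and 20.3% lower. Near a member over 2-fold lower in D2 lines, 56 of 247 genes were higher and 61 lower (47.4%). Near a member over 2-fold higher, 52 of 244 were higher and 56 lower (44.3%). RNA differences of over 2-fold were found at 15 higher (6.07%) and 12 lower (4.86%) genes of the 247. Of the 244, 16 (6.56%) were higher and 13 (5.33%) lower by this bound, where all genes had 3.68% higher and 3.66% lower. In bulk RNA, fewer cells of a type and less RNA per cell cannot be told apart.

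Single genes went both with and against their TRIM28 region, and those given here were chosen after their values were seen. Gm38246 RNA was 21.01, 38.2 and 19.3 in D29, DAC203 and D55, against 0.567, 0.524 and 0.687 in B41, B44 and B51 (log2 difference 4.03, limma adjusted p = 3.1e-06). The region beside it, chr3:51099498-51101229, had TRIM28 signal of 1.93, 0.828 and 2.02 in the D2 lines, against 19.7, 19.2 and 18.6 in the B6 lines (−3.60). Pramef17, of a family expressed in germ cells and early embryos, had RNA of 14.3, 16.4 and 16.1 in the D2 lines, and its B6 mean was 0.135 ± 0.184 (SD, n = 3), with TRIM28 difference −2.34 at chr4:143987405-143988538. Glrx, the gene of the redox enzyme glutaredoxin, was higher in D2 lines (2.34) with lower TRIM28 at chr13:75829314-75832319 (−1.79). With the opposite pairing, Tceanc2 RNA was 1.71, 1.76 and 1.74 in the D2 lines, against 14.4, 13.7 and 14.8 in the B6 lines (−2.48), and TRIM28 was higher at chr4:107173120-107176291 (1.88). Other genes moved the same way as their region. Nod1, a sensor of bacterial peptidoglycan, was lower in D2 lines (−3.36) near a region with a difference of −1.33, and Med12l, a paralog of a Mediator subunit, was higher (1.82) near a region with a difference of 1.36.

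RNA of the silencing machinery differed in both directions. All 29 listed genes of KRAB-directed silencing were tested, and 6 were higher and 7 lower in D2 lines (44.8% in all, against 37.6% of all genes), with a median log2 difference of −0.13 against −0.04 over all genes. Trim28 itself was 1708 ± 46.9 in D2 lines and 1378 ± 126 in B6 lines (SD, n = 3 each; 0.31, limma adjusted p = 0.019). Atf7ip, the SETDB1 partner (0.26), the H3K9 methyltransferases Ehmt1 (0.23) and Ehmt2 (0.27), and the KRAB zinc finger genes Zfp568 and Zfp809 (0.59 each) were also higher. The HP1 genes Cbx1 (−0.43) and Cbx3 (−0.55), the remodeller Chd3 (−0.64), Morc3 (−0.24), Mphosph8 of the HUSH complex (−0.46), Sumo2 (−0.31) and Zfp932 (−0.73) were lower. Zfp57, whose hexamer is printed above, was 165 ± 16.8 in D2 lines and 175 ± 26.05 in B6 lines and did not pass (−0.08, limma adjusted p = 0.62).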

How the data were processed

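TRIM28, P300 and POU5F1 ChIP-seq, ATAC-seq and RNA-seq were deposited as tables of normalized values per region or gene. Per the submitters' processing notes, mm10 was the genome build, and the tools listed include MACS 1.4.2, Bowtie 1.0.0 and HISAT2 2.0.5, with no role given. The deposited TRIM28, P300, POU5F1 and RNA values are signal, normalized by the authors in a way not given in the sources used here. Every TRIM28 value was a whole number of reads times 1 constant per library (100% within 0.01 of a read), so reads could be recovered. The ATAC table with F1 lines holds log2 values as deposited by the authors, and the other ATAC tables served for their region coordinates.

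Overlap meant at least 1 shared base (bedtools 2.31.1). TRIM28 was tested with limma 3.58.1 (trend and robust, R 4.3.3) on log2(signal + 0.1), P300 and POU5F1 on log2(signal + 1), and RNA on log2(value + 1) for genes with a mean of at least 0.5. Fold changes on these scales understate changes of low values. P-values were adjusted over each whole table, with a threshold of 0.05. Single values were compared by exact permutation. Alternatives, among them edgeR 4.0.16 and DESeq2 1.42.0 on the recovered reads, are given in the closing section. The fits were tested on simulated data with far fewer changed features than were called here. For TRIM28, 61% of 2-fold and 100% of 4-fold differences were recovered, with 2 false calls. For RNA the shares were 95% and 100%, with 8 false calls.

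Named members were the 10 largest rises and 10 largest falls among called regions with separate lines and a mean at or above the median of all regions (5.48, leaving 8556), the 5 with the highest signal, the 5 with the highest signal per kb, the 5 widest, and the 5 strongest at imprinted and at Zfp genes. Members, gene lists and motifs were chosen with earlier results of these data known. Annotation was GENCODE vM21, and sequences were read from RefSeq GRCm38. The last of the 10 rises is not reported here. No sequence of chromosome 18 is printed, and input libraries and the other cell stages were not used here, apart from the EpiLC accessible regions.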

Additional observations from a re-analysis of the deposited data

How the results depend on the processing

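The number of members called was 20148 of 37885 (53.2%). Over the alternatives it ranged from 14787 to 21432, and these ends rest on other sets of regions. The lowest was 14787 of 27682 (53.4%) without the lowest 20% of regions by signal. The highest was 21432 of 41013 (52.3%) with only ESC accessible regions in the rule. With a line left out it was 18234 to 19141 (48.1% to 50.5% of the members). Fits on recovered reads called 20833 (edgeR) and 16695 (DESeq2), of which 16662 were among the 20148. Replicate numbers did not pair the lines (correlations of 0.02, −0.01 and 0.04), and with a replicate block 20506 were called. Leaving out the lowest 20% of regions by signal gave 3524 over 2-fold lower (5810 otherwise), 475 of these with a hexamer (717) and 53 rises with a CTG tract (98), fewer regions being tested. The median difference of −0.05 was −0.10 by DESeq2 and −0.12 with the F1 table added to the rule, and −0.09 to −0.03 with a line left out. Median width was 1464 bases with no accessible region within 1 kb and 1439 with the F1 table added. The signal ratio of 1.05 per kb was 1.09 (exact permutation p = 0.03125) with no accessible region within 1 kb, 0.784 per region, and 1.03 to 1.07 with a line left out. RNA calls numbered 3063 at 50 kb against 1006 at 10 kb, more genes being tested, and 705 to 1100 with a line left out. P300 calls ranged from 23 to 220 and POU5F1 calls from 23 to 73 with a line left out. Of 43 named regions, 34 were called, and 30 of these kept the call under every alternative tried. With a line left out, differences that had not passed changed sign at chr16:22271263-22284845 (−0.0145 to 0.14), chr10:20007464-20019730 (−0.0192 to 0.25) and chr15:96983273-96985597 (−0.13 to 0.0707). The cause was not tested. Depth limits single members: 5 of the 6 lines had 38 to 46 reads in the median TRIM28 region.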

Other observations

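CpG content was a further property of the windows with the ZFP57 hexamer. Among members with more than 3 CpG per 100 bases, 27.8% of those with the hexamer were over 2-fold lower in D2 lines, against 15.2% of those without, and 4.84% were over 2-fold higher with it, against 19.5% without. At 1.5 to 3 CpG per 100 bases the shares over 2-fold lower were 24.2% with the hexamer and 12.5% without, at 0.5 to 1.5 they were 21.8% and 15.3%, and at up to 0.5, with 32 hexamer members, 15.6% and 15.5%. A hexamer that differs from it in the first letter, AGCCGC, was searched on both strands after these values were seen. It was in 2238 members, of which 20.9% were over 2-fold lower and 6.03% higher. Other tracts did not show the rises seen with CTG: among members with a CA tract 12.3% were over 2-fold higher and 16.2% lower, and among those with a GA tract 8.23% and 16.96%.

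Of all members, 11.2% were over 2-fold higher and 15.3% lower in D2 lines. The X chromosome had more rises than falls, with 230 (16.4%) of 1401 members over 2-fold higher and 131 (9.35%) lower in D2 lines. Chromosomes 12 and 14 had many falls, with 399 (23.6%) and 407 (23.1%) members over 2-fold lower. Inside accessible chromatin the hexamer bins that were low in masked bases showed little difference, with 2.79% over 2-fold lower with the hexamer and 2.53% without where 0 to 25% of the window was masked, and 11.96% and 7.86% where 75 to 100% was masked.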
